A study of Mus musculus with 17 samples.

Results

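The CXCR3 chemokine axis was followed through 7 genes chosen by name: the ligands Cxcl9, Cxcl10 and Cxcl11, their receptor Cxcr3, the cytokine Ifng and the subunits Ifngr1 and Ifngr2 of its receptor. They are 7 of the 18194 genes measured, and 10 of the 34958 probe sets assigned to a single gene report them. RNA came from the thoracic spinal cord of female inbred C57BL/6 mice, 8 weeks old per the labels (C57BL/6J in the study's methods), on 17 arrays with 1 mouse each. The anti-RGMa group (n = 6) and the isotype control group (n = 5) had targeted experimental autoimmune encephalomyelitis (EAE), a model in which an immunized mouse receives cytokines into the cord and the lesion develops around the injection site. Both EAE groups were immunized with a myelin oligodendrocyte glycoprotein peptide in complete Freund's adjuvant. After 3 weeks they underwent a dorsal laminectomy and an injection of TNF-α and IFN-γ protein into the cord, with pertussis toxin on days 0 and 2 after the injection. From 9 days post injection (DPI) they received 10 mg/kg of a humanized antibody against repulsive guidance molecule a (RGMa) or of palivizumab as isotype control. A segment of 4.5 mm around the injection site was taken at 14 DPI. Per the study's methods the mice were bought at 7 weeks of age, so the EAE mice were older than 8 weeks by then. The naïve mice (n = 6) are labelled as not treated. Immunization with adjuvant, surgery, injected TNF-α and IFN-γ, pertussis toxin, antibody and disease all separate the EAE groups from naïve mice, and their parts cannot be told apart. Age may separate these groups as well.

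CXCL9, CXCL10 and CXCL11 are chemokines that are induced in many cell types by interferon-γ and bind the same G protein-coupled receptor, CXCR3, which is carried mainly by activated T cells and NK cells. IFN-γ, made by the same lymphocytes, signals through IFNGR1 and IFNGR2 and the JAK-STAT pathway. In inflamed central nervous tissue the axis is known for drawing T helper 1 and cytotoxic T cells towards the lesion.

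The ligand genes lie next to each other on mouse chromosome 5, in the order Cxcl9, Cxcl10 and Cxcl11 of the RefSeq annotation, with Art3 spanning the last pair. The promoters of Cxcl9 and Cxcl10 are shown because these genes had the largest differences among the members between EAE and naïve cord. They run from 250 bases before to 50 bases after the annotated start (RefSeq, GRCm38.p6), at chr5:92328030-92328329 and chr5:92348840-92349139, both on the minus strand and written 5′ to 3′. Capitals mark matches to the core of an interferon-stimulated response element (ISRE, searched as GAAANNGAA) and to the start of an NF-κB site (GGGANNTTC), on either strand.
Cxcl9 promoter: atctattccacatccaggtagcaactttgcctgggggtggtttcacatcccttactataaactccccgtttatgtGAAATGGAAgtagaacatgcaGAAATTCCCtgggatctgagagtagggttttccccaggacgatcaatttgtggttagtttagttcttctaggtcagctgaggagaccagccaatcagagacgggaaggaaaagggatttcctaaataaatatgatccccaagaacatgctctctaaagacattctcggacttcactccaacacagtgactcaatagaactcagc
Cxcl10 promoter: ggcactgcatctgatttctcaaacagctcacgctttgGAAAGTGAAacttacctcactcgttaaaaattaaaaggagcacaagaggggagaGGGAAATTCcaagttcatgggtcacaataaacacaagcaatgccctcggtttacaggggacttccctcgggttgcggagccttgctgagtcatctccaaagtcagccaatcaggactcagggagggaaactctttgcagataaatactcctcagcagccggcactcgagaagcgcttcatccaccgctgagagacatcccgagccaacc
In the Cxcl9 promoter the ISRE core lay at -175 to -167 from the start and the NF-κB letters, on the other strand, at -154 to -146. In the Cxcl10 promoter they lay at -213 to -205 and at -159 to -151. Of 32851 mouse promoters of this length, 8.56% held the ISRE core, 3.94% the NF-κB letters and 0.387% both. The letters of an IFN-γ activated site (GAS, TTCNNNGAA), present in 8.30% of promoters, were found in 1 of the 6 members with a promoter entry, Ifng, at -249 to -241. The promoter of Ifngr2 held the NF-κB letters at -74 to -66, and those of Ifngr1 and Cxcr3 held none of these motifs. These matches are descriptions of letters and not of binding. Cxcl11 is annotated as a transcribed pseudogene in this assembly, which is that of C57BL/6J.

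Values are log2 of the deposited signal, a linear brightness per probe set that was scaled to the same trimmed mean in every array. A gene with several probe sets is represented by its brightest one, and levels of different probe sets are not compared with each other. A difference was called at the threshold of the study, an unadjusted limma p under 0.05 with a fold change over 1.5, and p-values adjusted by Benjamini-Hochberg over all genes are given beside it. P-values measure the spread between mice. In limma 1 estimate of that spread per gene is shared by all 3 groups, so naïve mice also enter the SE and intervals between the antibody groups. The label was borne out as central nervous tissue by astrocyte, oligodendrocyte and neuronal markers, whose mean log2 signals were between 9.10 and 13.93 in every array. These markers do not tell the cord from other central nervous tissue. Among the EAE cords, isotype control replicate 4 stood apart by skeletal muscle markers (mean log2 signal 13.28). Isotype control replicates 3 and 5 were at 9.54 and 9.25, also above the anti-RGMa group at 5.65 to 7.47. Isotype control replicates 1 and 2 were at 5.95 and 5.55. Anti-RGMa replicate 1 stood apart by dorsal root ganglion markers (9.83), followed by anti-RGMa replicate 6 (8.54). Anti-RGMa replicates 2 to 5 were at 5.91 to 6.30 and the isotype control group at 5.35 to 6.46. Anti-RGMa replicate 6 was low in neuronal markers (9.10, with the rest of its group at 10.15 to 10.57 and the isotype control group at 9.38 to 10.10), and leaving it out raised the number of genes at an adjusted p under 0.05 between the antibody groups to 1503, against 1 with all arrays. In bulk tissue, fewer cells of a type and less RNA per cell cannot be told apart.

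Cxcl9 encodes a ligand that depends closely on IFN-γ. Its log2 signal was 12.59, 12.33, 12.65, 12.88, 12.50 and 12.95 in the anti-RGMa mice, 13.05, 12.36, 12.36, 11.97 and 13.78 in the isotype control mice, and 3.81, 2.17, 2.80, 3.06, 3.23 and 2.70 in the naïve mice. Every EAE cord lay far above every naïve cord, while the antibody groups overlapped. Cxcl9 rose in both EAE groups, by 9.69 ± 0.29 log2 in anti-RGMa mice (SE, adjusted p = 2.33e-12) and by 9.74 ± 0.30 in isotype control mice (adjusted p = 4.44e-12), each against naïve. The naïve signals, 4.51 to 14 on the linear scale, are near the floor of the array. With an offset of 32 added to every signal the rises were 7.33 and 7.38 log2, or 161-fold and 167-fold. Anti-RGMa and isotype control differed by -0.05 log2 (95% interval -0.70 to 0.59, adjusted p = 0.95).

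Cxcl10 encodes the ligand also known as IP-10, which type I interferons and TNF induce as well. Its log2 signal was 11.85, 11.17, 11.20, 12.70, 12.06 and 12.61 in anti-RGMa mice, 12.33, 12.48, 11.98, 11.34 and 13.21 in isotype control mice, and 6.22, 5.72, 5.89, 5.16, 5.71 and 2.60 in naïve mice. The EAE and naïve ranges did not overlap, and naïve replicate 6 was the lowest value by a wide margin. Cxcl10 rose by 6.71 ± 0.53 log2 in anti-RGMa mice (adjusted p = 9.88e-08) and by 7.05 ± 0.55 in isotype control mice (adjusted p = 7.66e-08) against naïve. With the offset of 32 these were 5.71 and 6.05 log2. The lowest values of the EAE cords belonged to anti-RGMa replicates 2 and 3 and isotype control replicate 4. Between the antibody groups the difference of -0.34 log2 was smaller than the SD of either group, 0.66 and 0.68, and its interval ran from -1.51 to 0.84 (adjusted p = 0.789). The wider SD of naïve mice, 1.33, also enters that interval.

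Cxcl11 encodes the ligand with the highest affinity for CXCR3 where it is functional, and here only its transcript was measured. Its log2 signal was 7.97, 7.96, 8.34, 8.65, 7.85 and 8.52 in anti-RGMa mice, 8.06, 7.99, 8.51, 7.70 and 9.17 in isotype control mice, and 6.25, 5.18, 5.66, 5.70, 5.87 and 6.03 in naïve mice. All 11 EAE cords lay above all 6 naïve cords, by a smaller step than for the other ligands. Cxcl11 rose by 2.43 ± 0.24 log2 in anti-RGMa mice (adjusted p = 1.04e-06) and by 2.50 ± 0.25 in isotype control mice (adjusted p = 9.05e-07) against naïve. The antibody groups differed by -0.07 log2 (95% interval -0.60 to 0.46, adjusted p = 0.913). The second probe set was dim, at 2.68 to 5.85 in anti-RGMa mice, 5.36 to 6.46 in isotype control mice and at most 5.44 in naïve mice. Against naïve its 1.15 log2 in anti-RGMa mice passed the threshold (adjusted p = 0.109) but not with the offset of 32, where it was 0.43. In isotype control mice it rose by 2.05 log2 (adjusted p = 0.00701) and by 0.85 with the offset, with a range that overlapped that of naïve mice.

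The neighbours of the ligand genes did not share the size of their rises. In isotype control against naïve, Art3, an ADP-ribosyltransferase family gene whose annotated span covers Cxcl10 and Cxcl11, fell by 0.68 log2 (adjusted p = 0.000897). Nup54, a nucleoporin gene beyond Cxcl11, rose by 0.93 (adjusted p = 0.000261) and Naaa, a lysosomal amidase gene beyond Cxcl9, by 1.19 (adjusted p = 9.18e-05). Sdad1, Scarb2 and Ppef2 were at 0.21, -0.09 and 0.09 log2 and were not called.

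Cxcr3, the receptor, was measured at 8.33, 8.55, 8.80, 8.68, 8.60 and 9.19 log2 in anti-RGMa mice, 9.12, 8.60, 8.45, 8.32 and 8.99 in isotype control mice, and 6.31, 6.50, 6.65, 6.44, 6.21 and 6.30 in naïve mice. The naïve cords were tightly grouped, below every EAE cord. The receptor rose by 2.29 ± 0.15 log2 in anti-RGMa mice (adjusted p = 1.82e-08) and by 2.29 ± 0.16 in isotype control mice (adjusted p = 2.51e-08), and by 1.93 and 1.94 with the offset of 32. Between the antibody groups the difference was -0.00 log2, with an interval from -0.35 to 0.34 (adjusted p = 0.991).

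Most, but not all, markers of the cells that carry CXCR3 rose in EAE against naïve cord. Of 11 measured T cell markers, 9 rose in anti-RGMa mice (14.0% of all genes did) and 9 in isotype control mice (18.0%) against naïve. The median over the list was 2.78 and 3.23 log2. The exceptions were Zap70 (0.26 log2 in anti-RGMa and -0.05 in isotype control mice) and Cd8a (0.19 and -0.04). Their summed signal was 3122 to 5598 in anti-RGMa mice, 2619 to 5370 in isotype control mice and 633 to 1078 in naïve mice. Of 7 NK cell markers, 5 rose in each EAE group, with summed signals of 950 to 1701 in anti-RGMa mice, 971 to 1872 in isotype control mice and 272 to 380 in naïve mice. The NK markers that were not called were Ncr1 (0.22 log2 in anti-RGMa and -0.50 in isotype control mice) and Prf1 (-0.34 and -0.54, the second with an adjusted p of 0.0123 but short of the fold threshold). Ncr1 and Klra8, which define NK cells, stayed under a log2 signal of 7 in every array, as did Cd4. Between the antibody groups the median of the T cell list was -0.02 log2, and 1 of its 11 markers was called, as were 3.94% of all genes. It was Cd4, which fell by 1.09 log2 (adjusted p = 0.225). The part of lymphocyte number in the level of Cxcr3 was not tested.

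Ifng, the cytokine itself, was measured at 6.69, 7.17, 6.77, 7.50, 6.95 and 8.29 log2 in anti-RGMa mice, 6.88, 6.88, 7.06, 6.28 and 8.25 in isotype control mice, and 3.21, 0.90, 3.17, 5.10, -0.13 and 1.28 in naïve mice. Each EAE cord was above each naïve cord, and anti-RGMa replicate 6 and isotype control replicate 5 were the highest. Ifng rose by 4.97 ± 0.69 log2 in anti-RGMa mice (adjusted p = 4.29e-05) and by 4.82 ± 0.73 in isotype control mice (adjusted p = 5.19e-05). These sizes rest on very low naïve signals. With the offset of 32 they were 2.19 and 2.07 log2, or 4.56-fold and 4.19-fold. Anti-RGMa and isotype control differed by 0.16 log2, and the interval from -1.39 to 1.70 was the widest of the 7 genes (adjusted p = 0.937). The spread of naïve mice enters this interval, with an SD of 1.91 against 0.60 in anti-RGMa and 0.72 in isotype control mice. With the offset the difference was 0.12 (interval -0.46 to 0.71), and without the offset it was -0.06 when anti-RGMa replicate 6 was left out and -0.04 when isotype control replicate 4 was. The injected IFN-γ was protein, while the array reads RNA of the mouse gene.

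Ifngr1 encodes the ligand-binding subunit of the IFN-γ receptor. Its log2 signal was 10.25, 10.19, 10.38, 10.45, 10.47 and 11.32 in anti-RGMa mice, 11.13, 10.76, 10.64, 10.62 and 11.11 in isotype control mice, and 8.73, 8.71, 9.04, 8.76, 8.73 and 8.86 in naïve mice. It rose by 1.70 ± 0.16 log2 in anti-RGMa mice (adjusted p = 8.97e-07) and by 2.05 ± 0.17 in isotype control mice (adjusted p = 1.53e-07). Among the EAE cords, anti-RGMa replicate 6 was the highest of all, and the other 5 anti-RGMa mice lay below all 5 isotype control mice. The difference between the antibody groups was -0.34 ± 0.17 log2 (interval -0.71 to 0.02, adjusted p = 0.345), with 5 of 6 anti-RGMa mice below the isotype control mean. Without anti-RGMa replicate 6 it was -0.50 log2 with an adjusted p of 0.0234, in a fit in which 8.26% of all genes passed an adjusted p of 0.05. With all arrays its unadjusted limma p was 0.0654. Markers of macrophages and monocytes, cells in which the subunit is expressed, also set replicate 6 apart within the anti-RGMa group, with a mean log2 signal of 11.57 in anti-RGMa replicate 6, 10.47 to 10.91 in the other anti-RGMa mice, 10.83 to 11.77 in isotype control mice and 6.89 to 7.79 in naïve mice. Of the 11 markers, 3 fell between the antibody groups (median over the list -0.30 log2), none with an adjusted p under 0.05. In this comparison 3.94% of all genes were called in either direction. The summed signal of these markers was 46303 to 70366 in anti-RGMa mice, 45217 to 72873 in isotype control mice and 5733 to 7363 in naïve mice. Their part in the level of Ifngr1 was not tested.

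Ifngr2 encodes the signalling subunit and had the smallest rise of the members. Its log2 signal was 9.36, 9.13, 9.38, 9.44, 9.60 and 9.79 in anti-RGMa mice, 9.91, 9.17, 9.49, 9.22 and 9.75 in isotype control mice, and 9.13, 9.16, 9.04, 9.00, 8.57 and 8.43 in naïve mice. Naïve replicates 5 and 6 were the lowest, and anti-RGMa replicate 2 lay within the naïve range. Against naïve, the 0.56 ± 0.16 log2 of anti-RGMa mice missed the fold threshold (adjusted p = 0.0112), and in isotype control mice Ifngr2 rose by 0.62 ± 0.17 log2 (adjusted p = 0.00598). The fold threshold was passed in anti-RGMa mice without anti-RGMa replicate 2 (0.63) or naïve replicate 1 (0.61), 2 (0.62) or 3 (0.59). The call in isotype control mice was lost without isotype control replicate 1 (0.52) or 5 (0.56) or naïve replicate 5 (0.56) or 6 (0.53). The second probe set was at 0.46 log2 in anti-RGMa mice (adjusted p = 0.164) and 0.45 in isotype control mice (adjusted p = 0.169) against naïve. Between the antibody groups Ifngr2 differed by -0.06 log2 (interval -0.42 to 0.30, adjusted p = 0.89).

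**Figure D1:**
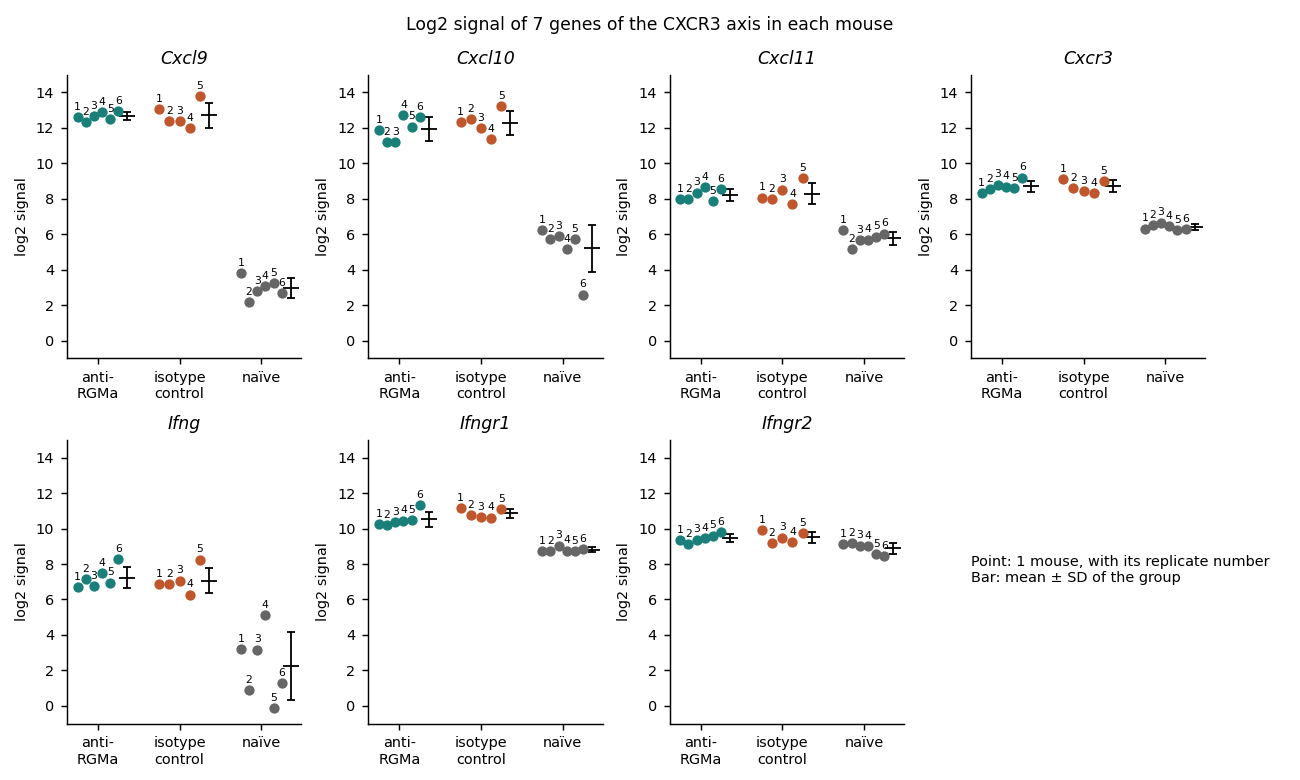
Log2 signal (vertical axis) of the 7 genes in each mouse, as points numbered by replicate, for anti-RGMa (n = 6), isotype control (n = 5) and naïve (n = 6) mice, with the mean ± SD as bars. EAE cords lay above naïve cords in 6 of the 7 genes without overlap in either antibody group, and in Ifngr2 the anti-RGMa and naïve values overlapped.

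Counted together, 6 of the 7 members were called higher in anti-RGMa mice than in naïve mice, where 14.0% of all genes were, and 7 of 7 in isotype control mice, where 18.0% of all genes were. At an adjusted p under 0.05 the counts were 7 of 7 (20.3% of all genes) in anti-RGMa mice and 7 of 7 (24.6%) in isotype control mice. Groups that did not overlap, with EAE above naïve, were found for 6 of 7 members in anti-RGMa mice (13.9% of all genes) and for 7 of 7 in isotype control mice (18.3%). The smallest two-sided p of an exact permutation test is 0.00216 for 6 mice against 6 and 0.00433 for 5 against 6, and the members without overlap had that value. The median change of the members was 2.43 log2 in anti-RGMa mice and 2.50 in isotype control mice, against -0.03 and -0.04 over all genes. Counted by probe set, 8 of 10 were called higher in anti-RGMa mice (12.5% of all probe sets) and 9 of 10 in isotype control mice (16.5%). Both comparisons use the same naïve arrays. Centring each array on its median moved the median of all genes to -0.22 and -0.27 log2, and 6 of 7 members were then called in each EAE group.

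**Figure D2:**
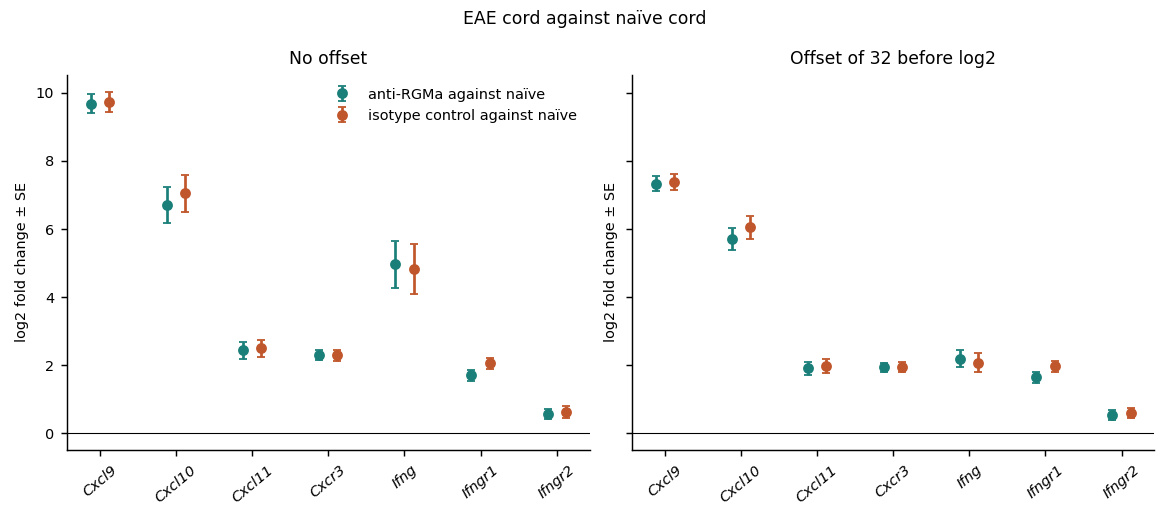
Log2 fold change ± SE (vertical axis) of each gene against naïve, for anti-RGMa and isotype control mice, without an offset on the left and with 32 added to each signal on the right. The offset lowered Cxcl9 to 7.33 and 7.38 and Ifng to 2.19 and 2.07, and left Ifngr1 at 1.64 and 1.97, in anti-RGMa and isotype control mice.

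Anti-RGMa was set against isotype control to ask whether antibody treatment changed the axis in established disease. At the threshold of the study 0 of 7 members were called (3.94% of all genes were). An unadjusted limma p of 0.05 was passed by 0 of 7 members and by 2870 of 18194 genes. At an adjusted p of 0.05, 0 of 7 passed (0.00550% of all genes), and 0 of 7 had groups without overlap (0.808%). Under the alternatives with 1 value per gene, 1 member passed an unadjusted p of 0.05, Ifngr1. Its limma p was 0.046 with trend and robust variance, 0.00817 with array weights and 0.0108 with the replicate number as a fixed block. It was 0.048 without isotype control replicate 4, beside the runs without anti-RGMa replicate 6. The adjusted p of Ifngr1 over these 4 was 0.123 to 0.368. The second probe set of Cxcl9, described below, had a limma p of 0.00799 with the offset of 32. In that fit 5141 of 34958 probe sets had an unadjusted p under 0.05. With all arrays and the brightest probe sets, the differences of the 7 members lay between -0.34 and 0.16 log2, with a median of -0.06 against 0.01 over all genes. The intervals for Cxcr3 and Ifngr2 left room for changes of at most 0.35 and 0.42 log2 in either direction, while those for Cxcl10 and Ifng reached beyond 1 log2. The wide naïve spread of Cxcl10 and Ifng enters their intervals. Missing the threshold does not show that the levels were alike.

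**Figure D3:**
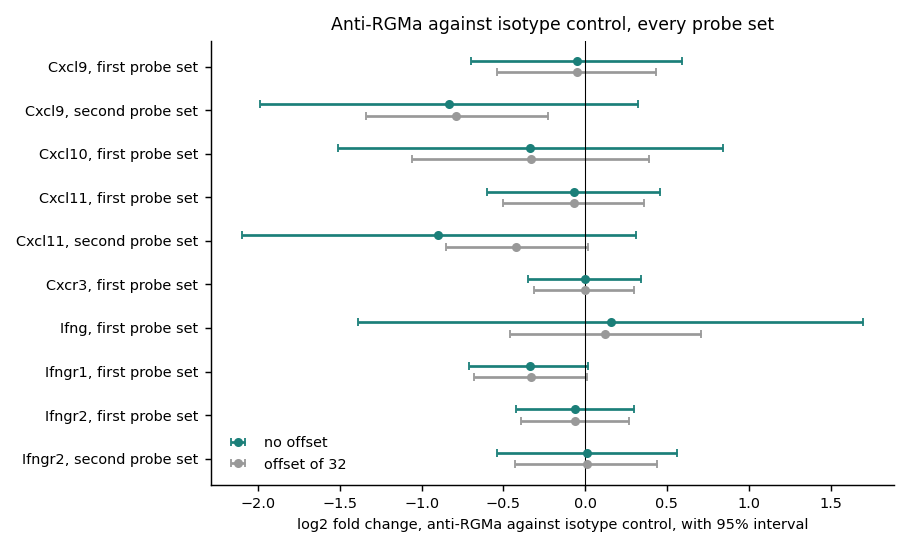
Log2 fold change of anti-RGMa against isotype control (horizontal axis) with its 95% interval for each of the 10 probe sets, without an offset and with 32 added to each signal. With the offset, the interval of the second Cxcl9 probe set (-1.34 to -0.23) does not include 0.

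Cxcl9 has a second, dimmer probe set. The second one read 8.47, 8.16, 8.72, 9.30, 8.57 and 9.57 log2 in anti-RGMa mice, 9.68, 9.53, 9.21, 9.08 and 10.66 in isotype control mice, and 1.37, 1.53, 3.25, 4.72, 4.17 and 2.46 in naïve mice. All 6 anti-RGMa mice were below the isotype control mean, although the ranges overlapped. The difference was -0.83 ± 0.54 log2 (adjusted p = 0.502, not called), and a two-sided exact permutation test of this probe set gave p = 0.0433, the only one under 0.05 among the 10 probe sets compared. The spread of naïve mice enters the SE of 0.54, with an SD of 1.37 against 0.53 in anti-RGMa and 0.62 in isotype control mice. With the offset of 32 the difference was -0.79 ± 0.26 log2 and was called (adjusted p = 0.224), as were 2.34% of all probe sets. It was then not called without isotype control replicate 5 (-0.54), and without anti-RGMa replicate 6 it was -0.93 with an adjusted p of 0.0409. In this last fit, 1316 of 34958 probe sets passed an adjusted p of 0.05 with a positive difference and 935 with a negative one. With all arrays and the offset, 0 passed in either direction. The first (brighter) probe set minus the second within the same array was 3.85 ± 0.31 log2 in anti-RGMa mice (SD, range 3.38 to 4.17) and 3.07 ± 0.21 in isotype control mice (range 2.83 to 3.37). The 0.78 log2 between these means restates the gap between the fold changes of the probe sets, was chosen after the values had been seen and is given as a description with no test. With the offset it was 0.74 log2, and the groups did not overlap on either scale. Of the 9012 genes with several probe sets, 0.799% had groups without overlap in this measure. For Cxcl11, whose second probe set is near background, the groups overlapped in this measure. They differed by 0.82 log2, and by 0.35 with the offset. For Ifngr2 the groups overlapped and differed by -0.07, and by -0.06 with the offset. The positions of the probes in the transcript were not analysed here.

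**Figure D4:**
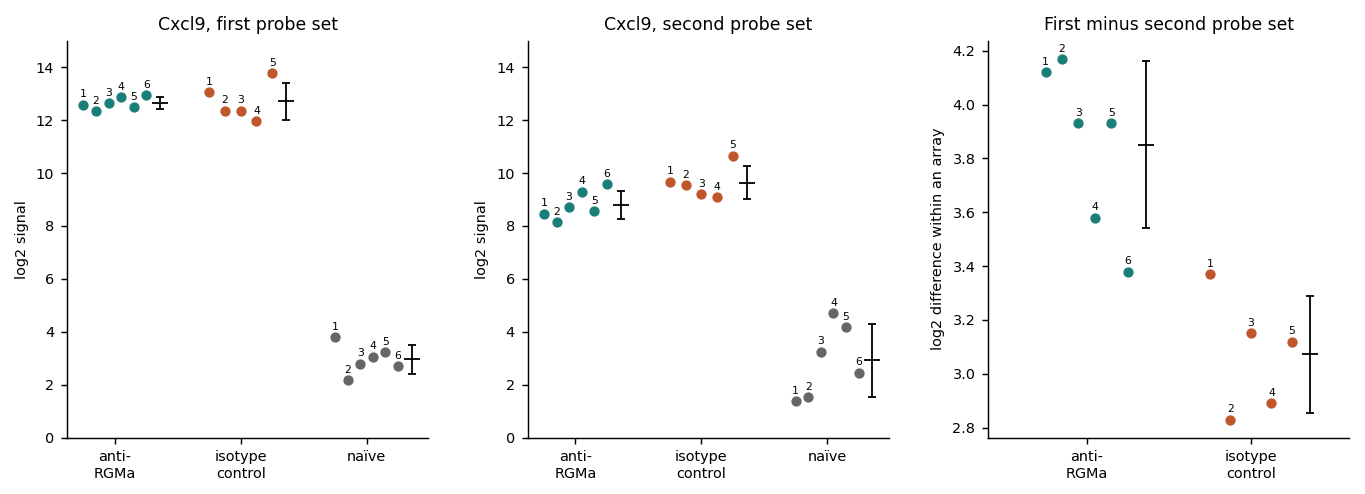
Log2 signal of the brighter and the second probe set of Cxcl9 in each mouse, and the first minus the second within each array for the EAE mice, as points numbered by replicate with the mean ± SD. The within-array difference was 3.38 to 4.17 in anti-RGMa mice and 2.83 to 3.37 in isotype control mice.

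Mice differed along the axis within each antibody group. Isotype control replicate 5 had the highest signal of the 11 EAE cords for Cxcl9, Cxcl10 and Cxcl11 and the second highest for Ifng. Anti-RGMa replicate 6 was the highest for Cxcr3, Ifng and Ifngr1. Isotype control replicate 4, the cord highest in muscle markers, was the lowest for Cxcl9, Cxcl11, Cxcr3 and Ifng.

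Whether cords high in the receptor or the cytokine were also high in the ligands was described in 7 pairs over the 11 EAE arrays. Cxcr3 and Cxcl9 gave a Pearson r of 0.75 and a Spearman rho of 0.85 (permutation p = 0.00613 and 0.00188, adjusted over the 7 pairs 0.0159 and 0.0132), and r was 0.82 without the cords farthest from the median of Cxcr3. Within the 6 anti-RGMa mice r was 0.68. Ifng and Cxcl11 gave r = 0.81 and rho = 0.67 (permutation p = 0.00196 and 0.0277, adjusted 0.0137 and 0.0721), and r = 0.69 without anti-RGMa replicate 6 and isotype control replicate 5. For Ifng with Cxcl9, Cxcl10 and Cxcr3, r was 0.76, 0.72 and 0.68 (adjusted permutation p = 0.0159, 0.0205 and 0.0272) and rho 0.42, 0.61 and 0.55 (adjusted 0.203, 0.0795 and 0.103). Without those cords r fell to 0.51, 0.49 and 0.31 over 9 arrays, so that the size of r depends on them. Leaving out the cords farthest from the median of Ifng also narrows its range, and the fall was not tested. Within the 6 anti-RGMa mice, replicate 6 included, r was 0.68, 0.67 and 0.82. Cxcr3 with Cxcl10 and Cxcl11 gave r = 0.55 and 0.52 (adjusted permutation p = 0.098 and 0.101). No value was computed for the 5 isotype control arrays alone. The mean log2 signal of the T cell markers also varied over these arrays, from 7.57 to 8.50 in anti-RGMa mice and from 7.58 to 8.52 in isotype control mice, and its part in these relations was not tested.

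**Figure D5:**
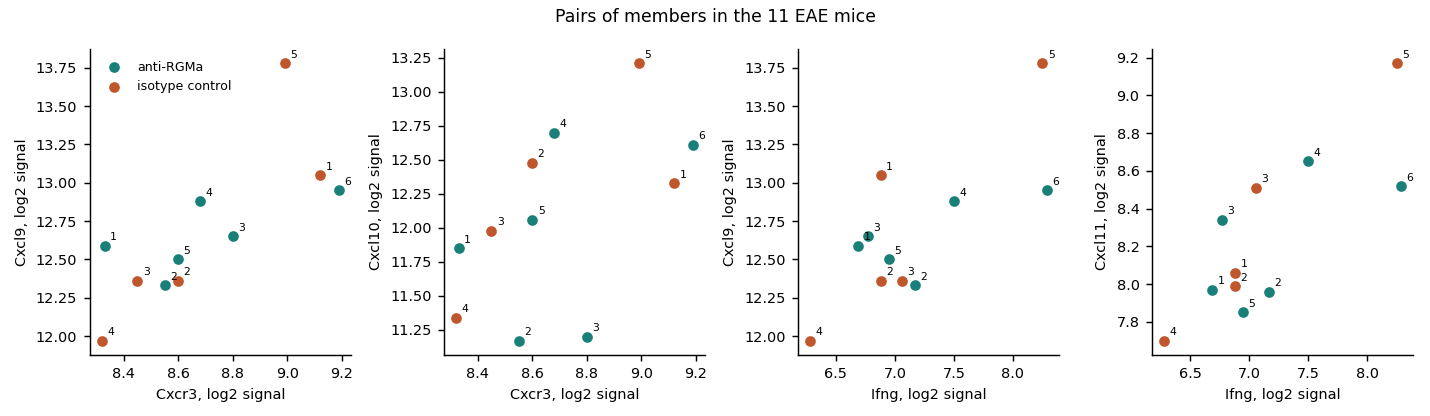
Log2 signals of pairs of genes in the 11 EAE mice, anti-RGMa and isotype control, numbered by replicate. The r of Cxcr3 with Cxcl9 was 0.75, and 0.82 without anti-RGMa replicate 6 and isotype control replicate 1. The r of Ifng with Cxcl9 was 0.76, and 0.51 without anti-RGMa replicate 6 and isotype control replicate 5.

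The genes whose pattern over the 11 EAE arrays was most like that of a member were sought by Pearson r among the 10099 genes whose log2 signal averaged 8 or more there. For Cxcl9 they were Clec5a (r = 0.96), Rfx5, Tifa and Calhm6 (0.93 each) and Cd86 (0.92). For Cxcl10 they were Gbp3 (0.99) and Gpr84, Bst2, Ifi35 and Tlr3 (0.98 each). For Cxcr3 they were Dusp2 and Washc1 (0.96 each), Nagpa and Alas1 (0.95 each) and Usp3 (0.94). Other members of the axis were not among these. In the ranking for Cxcl9, Cxcl11 was number 179 (r = 0.80), Cxcl10 number 384 (0.75), Cxcr3 number 397 (0.75) and Ifngr2 number 452 (0.74). In the ranking for Cxcl10, Cxcl9 was number 631 and Cxcr3 number 1839. In the ranking for Cxcr3, Ifngr2 was number 567, Ifngr1 number 606 and Cxcl9 number 792.

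The genes that surround the axis were read in 5 lists. Over all genes, 14.0% were called higher than naïve in anti-RGMa mice and 18.0% in isotype control mice. Between the antibody groups 3.94% of all genes were called in either direction. Of the 5 genes for other ligands and for removal or cleavage of CXCR3 ligands, 4 rose in anti-RGMa mice and 5 in isotype control mice against naïve, with a median of 0.94 and 1.45 log2. Between the antibody groups 1 of 5 was called and the median was -0.46 log2. This was Pf4, a platelet chemokine that in humans binds a form of CXCR3, which averaged 8.08 ± 0.66 log2 in anti-RGMa mice, 9.30 ± 0.43 in isotype control mice and 7.58 ± 0.54 in naïve mice (SD) and fell by 1.22 log2 with anti-RGMa (adjusted p = 0.209). Ackr1, a chemokine-binding receptor of venules and red cells, was at -0.46 log2 and Ackr3, a scavenger of CXCL11, at -0.45, neither called. Dpp4, a peptidase that truncates these chemokines, rose by 1.22 log2 in anti-RGMa mice against naïve and was at -0.28 between the antibody groups.

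Of 12 genes that promote IFN-γ production, 8 rose in each EAE group against naïve (median 2.17 log2 in anti-RGMa and 2.29 in isotype control mice), and 0 were called between the antibody groups (median -0.09). Stat4, which transmits IL-12 signals, rose by 6.59 log2 in isotype control mice against naïve and Il18r1, an IL-18 receptor subunit, by 5.15. They were at -0.48 and -0.17 log2 between the antibody groups. Il18 itself was at -0.23 log2 in isotype control mice against naïve and Il12rb2 at -0.34, neither called, and at 0.17 and 0.53 between the antibody groups.

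Of 11 genes of IFN-γ signalling, 9 rose in each EAE group (median 2.14 log2 in anti-RGMa and 2.49 in isotype control mice). Socs3, a feedback inhibitor of JAK signalling that IL-6 also induces, was the only one of them called between the antibody groups. It averaged 10.64 ± 0.66 log2 in anti-RGMa mice, 11.46 ± 0.36 in isotype control mice and 6.24 ± 0.47 in naïve mice (SD), and fell by 0.82 with anti-RGMa (adjusted p = 0.247). Jak2, the kinase bound to IFNGR2, was at -0.22 and Ptpn2, a phosphatase that acts on JAK and STAT proteins, at -0.30 between the antibody groups. Irf8, a transcription factor of myeloid cells, rose by 4.50 log2 in isotype control mice against naïve.

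Of 14 genes induced by IFN-γ, 13 rose in each EAE group (median 4.52 log2 in anti-RGMa and 4.67 in isotype control mice), and 0 were called between the antibody groups (median -0.12). Cd74, the invariant chain of MHC class II, rose by 6.20 log2 in anti-RGMa mice and 6.10 in isotype control mice, and Gbp2, a guanylate-binding protein gene, by 5.83 and 5.93. Igtp and Tap1, in pathogen defence and peptide transport, were at 0.15 and -0.17 between the antibody groups, and Gbp3 at -0.28. The exception was Nos2, inducible nitric oxide synthase, which was dim in all groups and not called.

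Of 14 genes of CXCR3 signalling and T cell migration, 11 rose in anti-RGMa mice and 12 in isotype control mice (median 2.11 and 2.52 log2), and 0 were called between the antibody groups, where the median was -0.27. The integrin subunits Itgal and Itgb2, which form LFA-1, rose by 4.91 and 4.80 log2 in anti-RGMa mice and by 5.24 and 4.90 in isotype control mice. Icam1, their endothelial ligand, was at -0.44 log2 between the antibody groups, Itga4, a subunit of VLA-4, at -0.48, and Gnai2, the G protein subunit that couples chemokine receptors, at -0.32, none of them called. Of 6 endothelial markers, 2 fell between the antibody groups (median -0.44), none with an adjusted p under 0.05, where 3.94% of all genes were called in either direction. The summed signal of these markers was 2771 to 4104 in anti-RGMa mice and 3549 to 5008 in isotype control mice. Their part in these values was not tested.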

How the data were processed

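RNA of 17 spinal cords was measured on 1-colour mouse arrays with 45101 probe sets. The deposited intensity values are linear signals that the authors computed with MAS5.0 and scaled globally, without pooling mice. Both affy and MAS5 stand in the submitters' processing notes. The mean after trimming 2% from each end was 500 in every array. Signals ran from 0.01183 to 44408.4, and array medians from 136.0 to 157.3 in anti-RGMa, 136.8 to 164.8 in isotype control and 131.5 to 145.1 in naïve mice. No detection calls were used, so low signals carry background. The number of arrays limits the precision.

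Probe sets were named from the platform annotation. Those with 1 gene (34958) were kept, those with several (932) or none (9211) were left out, and 34754 were matched by gene ID to the GRCm38.p6 table, which changed 0 symbols. Log2 signals of the brightest probe set per gene, without offset or filter, entered lmFit and eBayes of limma 3.58.1 (R 4.3.3) with all 3 groups in 1 model, the package and threshold being those of the study. Single values were compared by exact permutation over mice, and relations with 100000 resamples (scipy 1.17.1).

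The members and lists were chosen with earlier results of these data known. The text names the 7 members, per list the 3 genes of lowest p for anti-RGMa against isotype control and the 2 with the largest change against naïve, and 5 genes most like Cxcl9, Cxcl10 and Cxcr3. Nos2, Zap70, Cd8a, Cd4, Ncr1, Klra8, Prf1, the neighbours of the ligand genes and the second probe sets were named after their values were seen. A few listed genes were not analysed here.

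Each array was left out in turn, and the offset, the scaling, dim genes, probe sets, fitted groups, variance model and a replicate block were varied. In simulated data over the 18194 genes of anti-RGMa against isotype control, the threshold called 66.0% of genes changed by 0.75 log2 and 1.85% of unchanged genes. The promoters are those of RefSeq, and 6 of 7 members had an entry.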

Additional observations from a re-analysis of the deposited data

Results flagged for a closer look

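Of 30 groups of log2 signals without the offset, each 1 probe set in 1 group of mice, 5 held a mouse that stood apart from the rest. The rule was Dixon's limit at the 95% level, which chance alone passes in about 5% of groups. The limit was not applied to signals with the offset. Ifngr1 was at 11.32 log2 in anti-RGMa replicate 6, with the rest of its group at 10.19 to 10.47. Cxcl10 was at 2.60 log2 in naïve replicate 6, against 5.16 to 6.22 in the other naïve mice. With the offset of 32 it was at 5.25, against 6.08 to 6.74. The second probe set of Cxcl11 was at 2.68 log2 in anti-RGMa replicate 1, against 4.79 to 5.85 in the others of its group, and at 6.46 in isotype control replicate 5, against 5.36 to 5.64. With the offset anti-RGMa replicate 1 was at 5.26, against 5.90 to 6.49. The second probe set of Ifngr2 was at 6.36 log2 in naïve replicate 1, against 7.86 to 8.21 in the other naïve mice.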

How the results depend on the processing

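With 1 value per gene, 0 of the 7 members were called between anti-RGMa and isotype control under every alternative run, the replicate block included (0 of 7). The second probe set of Cxcl9 was called with the offset of 32 (-0.79 log2). The counts against naïve stayed between 6 and 7. With each array left out and 1 value per gene, the number at an adjusted p under 0.05 between the antibody groups was 0 to 1 (Ifngr1, without anti-RGMa replicate 6). Without that replicate and with the offset, the second probe set of Cxcl9 passed as well. Differences near 0 between the antibody groups changed sign. Cxcl11 was at 0.19 without isotype control replicates 3, 4 and 5, Cxcr3 at 0.03 with median centring and at 0.03 with quantile normalization, and Ifng at -0.01 with array weights and at -0.06 with the replicate number as a fixed block, which leaves anti-RGMa replicate 6 without a partner. With single arrays left out these differences ran from -0.24 to 0.22 for Cxcl9, -0.22 to 0.15 for Cxcl11, -0.10 to 0.10 for Cxcr3, -0.06 to 0.45 for Ifng, -0.14 to 0.04 for Ifngr2 and -0.06 to 0.07 for its second probe set (-0.05 to 0.06 with the offset, among them -0.02 and -0.03). They ran from -0.57 to -0.10 for Cxcl10 and from -0.50 to -0.27 for Ifngr1. Averaging the probe sets of a gene gave -0.44 for Cxcl9 and -0.48 for Cxcl11. Ifngr2 in isotype control against naïve missed the threshold with median centring (0.40), quantile normalization (0.49), the mean of probe sets (0.54), array weights (0.55) and the fixed replicate block (0.53). The cause of these changes was not tested. Same-numbered mice did not deviate together (correlations from -0.064 to 0.071), so the numbers were not taken as pairs.

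Over all genes, 716 were called between the antibody groups, against 425 with the filter on dim genes, which tests fewer genes, 492 with the offset, 1201 with the fixed replicate block, 1222 without anti-RGMa replicate 6 and 1202 without anti-RGMa replicates 1 and 6. Of the genes called against naïve, 60.6% were higher in anti-RGMa mice and 53.7% in isotype control mice, against 37.7% and 35.1% with median centring and 43.9% and 40.6% with quantile normalization. Naïve values near background leave the size of the rises of Cxcl9, Cxcl10 and Ifng uncertain. With the offset of 32 these rises were smaller. The rise of Cxcl11 was smaller as well, at 1.91 log2 in anti-RGMa and 1.98 in isotype control mice.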
